A study of Mus musculus with 52 samples.

Results

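The comparison described here is CD1530 added to CHIR-99021, in mouse extended pluripotent stem cells (EPSCs) treated for 2 days. Its members are 4 RNA-seq libraries of the 52 in the series, chosen by their labelled treatment: 2 from EPSCs given CHIR-99021 with CD1530 and 2 from EPSCs given CHIR-99021 alone. Both groups come from the wild-type line labelled mc6-1/Mu-mClover3-10# and differ in CD1530 only, so CHIR-99021 is present on both sides. Neither the doses nor the base medium of these arms is stated in the sources used here. Another pair of libraries, from EPSCs given CHIR-99021 with Elvitegravir for 2 days, serves as a second reference, because the CHIR-alone libraries differ from each other more than those of other groups do. Levels in untreated EPSCs, in EPSCs given CHIR-99021 with PD0325901 and in EPSCs given the totipotency medium for 2 days (S1 cells, which the study describes as receiving all the small molecules) are given for context, with 2 libraries each. A separate view of the same compound comes from aggregates of S1 cells kept for 1 day in the medium labelled 4C-64C (S2), with 2 libraries of the complete medium and 2 of the medium minus CD1530. All of these libraries are labelled with 1 cell line, and no label tells whether a group's libraries stem from different cultures, so the p-values measure the spread between these libraries, which may be technical.

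CD1530 is a synthetic agonist that prefers the gamma form of the retinoic acid receptor. Retinoic acid receptors (RARs) sit on DNA as pairs with retinoid X receptors (RXRs), hold co-repressors when empty and recruit co-activators when an agonist binds. Classic direct targets are the retinoic acid hydroxylase gene Cyp26a1, the receptor gene Rarb and the 3′ Hox genes, and in the embryo retinoic acid patterns the trunk and opens meiosis in germ cells. In pluripotent cell culture, retinoids are known for driving exit from pluripotency, including towards extraembryonic endoderm, the lineage of the yolk sac. CHIR-99021 inhibits GSK3 and thereby raises β-catenin, the mediator of canonical Wnt signalling. Elvitegravir is an inhibitor of the HIV integrase, and PD0325901 inhibits the kinase MEK upstream of ERK.

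The 2 promoters below are shown because both genes rose with CD1530 and hold the receptors' best-known recognition element close to their start. That element, the direct repeat with a 5-base spacer (DR5), was searched for by name on both strands in RefSeq promoter windows that run from 250 bases before to 50 bases after a start site (GRCm38.p6). It was found in 32 of 32851 windows (0.0974%). Each stretch runs from 130 to 11 bases before the RefSeq start, is written 5′ to 3′ on the strand of its gene, and has the match in capitals.
Cyp26a1, chr19:37697678-37697797, plus strand: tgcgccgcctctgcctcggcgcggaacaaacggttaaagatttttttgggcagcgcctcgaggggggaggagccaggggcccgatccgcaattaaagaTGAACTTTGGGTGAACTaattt
Rarb, chr14:16575487-16575606, minus strand: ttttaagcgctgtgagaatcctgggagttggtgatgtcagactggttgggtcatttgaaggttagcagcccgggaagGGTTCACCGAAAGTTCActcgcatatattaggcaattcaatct
The match lies 32 to 16 bases before the start of Cyp26a1, on the strand opposite to the gene, and 53 to 37 bases before this start of Rarb, on the strand of the gene. Of the 8 genes with a DR5 match that were tested, Cyp26a1 and Rarb rose and 2 other genes fell with CD1530. The same search with a 2-base spacer (DR2) gave 16 tested genes, of which 5 rose and 1 fell. With a 1-base spacer (DR1) it gave 37, of which 1 rose and 4 fell. For scale, 1718 of 13412 tested genes with a promoter entry rose and 959 fell. Among 16 genes of retinoid metabolism and transport, 12 had a promoter entry and Cyp26a1 alone held the DR5 letters. No member of the Hox list did so, with 22 of 39 genes having an entry, which says only that these letters are not in these windows.

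The 4 compared libraries held 26258749 to 45803006 counts, and the other 8 libraries of the first set 23928947 to 108304781. CHIR library 2 stood apart. The standard deviation of the log2 difference between libraries of a group was 0.88 for CHIR alone and 0.55 for CHIR with CD1530. CHIR library 1 lay closer to the Elvitegravir libraries, at 0.50, than CHIR library 2 did, at 0.89. This difference moved with base composition. Between the CHIR libraries, the log2 ratio of library 1 to library 2 correlated with the GC content of 13611 genes (Pearson r = 0.617, across genes of 1 pair of libraries), while r was 0.14 for the CD1530 libraries and 0.0871 for the Elvitegravir libraries. In the CD1530 comparison, the median log2 fold change was −0.44 in the fifth of genes with the lowest GC content and 0.53 in the fifth with the highest. Against the Elvitegravir reference these medians were −0.18 and 0.17, and the part of base composition in any single gene's result was not tested. Counts of list members below are therefore given against both references, and values of single genes against CHIR alone unless the Elvitegravir arm is named. The references share the CD1530 libraries and are not independent views of the compound.

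Adding CD1530 to CHIR changed 4103 of 19756 tested genes (20.8%). A gene counts as changed here when edgeR gives it an adjusted p under 0.05 together with a log2 fold change of at least 1 in size. Of these, 2452 rose (12.4%) and 1651 fell (8.36%). Without CHIR library 2 the counts were 1923 risen and 1155 fallen, and without CHIR library 1 they were 3272 and 2265. Against CHIR with Elvitegravir, 1887 genes rose (9.55%) and 1180 fell (5.97%). Of the 4103 changed genes, 2592 (63.2%) were also changed in the same direction against that reference and none in the opposite direction. Without CD1530 library 1 the fallen genes numbered 1060.

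Among genes reaching 10 CPM (counts per 1000000 counts of a library, after scaling of its total) in a compared group, the 12 with the largest rises were Cyp26a1, Aqp8, Hoxb8, Cyp26c1, Zfp703, Wfikkn1, Gpr50, Lama1, Sox17, Col4a1, Enpep and Hkdc1. They comprise 2 retinoic acid hydroxylases, 2 basement membrane chains, 3 transcription regulators and 5 genes of other kinds. Aqp8, a water channel gene, stood at 0.587 and 0.222 CPM in the CHIR libraries and at 37.8 and 42.7 CPM with CD1530. Enpep, which encodes a membrane aminopeptidase, went from 0.632 and 0.740 to 23.3 and 22.3 CPM, a log2 fold change of 5.06 ± 0.29 (SE), with an edgeR adjusted p of 1.28e-06. Gpr50, an orphan receptor gene of the melatonin receptor family, went from 0.497 and 0.222 to 14.0 and 14.6 CPM. Both CD1530 libraries lay above all libraries of both references for each of these 12 genes, which were chosen for their fold, and for 31.5% of all tested genes. The 12 largest falls included Otx2, Nphs1, Tdgf1, Lef1, Fgf4, Platr10, Vrtn, Lefty2, Nlrc4, Bnc2 and Kirrel2. Nphs1 and Kirrel2 encode adhesion proteins of the nephrin family, and Nphs1 went from 43.3 and 34.3 to 0.484 and 0.286 CPM. Platr10, a noncoding RNA named for its association with pluripotency, went from 93.9 and 63.7 to 1.93 and 1.98 CPM, a log2 fold change of -5.33 ± 0.26 (SE), with an edgeR adjusted p of 5.80e-07. Both CD1530 libraries were below every CHIR and Elvitegravir library for each of these 11 genes, chosen likewise, and for 27.1% of all tested genes. Against CHIR alone the shares of all tested genes that did not overlap were 36.9% above and 32.7% below, so a lack of overlap between 2 and 2 libraries is common here.

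The genes that handle retinoids inside the cell were the first group examined. Of 16 genes of retinoid metabolism and transport, 15 were tested, 8 rose and 1 fell, with a median log2 fold change of 1.98 against 0.03 over all tested genes. Against the Elvitegravir arm 8 rose and 2 fell. Lrat was not tested. Most of the members that rose clear, take up or bind retinoids, while Aldh1a1, which also rose, and Aldh1a2, the member that fell, encode enzymes that make retinoic acid.

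The 3 CYP26 enzymes oxidise retinoic acid and so remove it. Cyp26a1 (chromosome 19, 37697798 to 37701536, plus strand) stood at 3.12 and 1.85 CPM in CHIR alone, 2.62 and 2.89 CPM with Elvitegravir and 248 and 236 CPM with CD1530. The fitted log2 fold change was 6.57 ± 0.30 (SE), with an edgeR adjusted p of 3.57e-07, and S1 cells held 9.76 and 8.87 CPM. Cyp26b1 stood at 1.17 and 1.04 CPM in CHIR alone and 13.8 and 11.2 CPM with CD1530, a log2 fold change of 3.48 ± 0.37 (SE), with an edgeR adjusted p of 6.13e-05. Its S1 level of 14.8 and 16.9 CPM was above both CD1530 libraries, unlike that of Cyp26a1. Cyp26c1 went from 0.587 and 0.259 to 22.4 and 25.6 CPM, a log2 fold change of 5.74 ± 0.40 (SE), with an edgeR adjusted p of 4.28e-06. Untreated EPSCs held less than 1 CPM of each CYP26 gene in both libraries. Dhrs3, which reduces retinal back to retinol, stood at 2.98 and 2.15 CPM in CHIR alone and 43.3 and 41.2 CPM with CD1530, a log2 fold change of 4.02 ± 0.25 (SE), with an edgeR adjusted p of 1.96e-06.

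Carriers rose as well. Stra6, the cell-surface receptor that takes up retinol, stood at 4.47 and 1.85 CPM in CHIR alone, 4.70 and 5.12 CPM with Elvitegravir and 56.1 and 54.8 CPM with CD1530. That is a log2 fold change of 4.09 ± 0.34 (SE), with an edgeR adjusted p of 1.19e-05. Crabp2, which carries retinoic acid to the receptors, stood at 9.71 and 3.70 CPM in the CHIR libraries, a wide pair, and at 34.3 and 30.8 CPM with CD1530. The Elvitegravir libraries held 7.58 and 9.26 CPM of Crabp2, and against them the log2 fold change was 1.95 ± 0.48 (SE), with an edgeR adjusted p of 0.0118. Its relative Crabp1 did not pass against CHIR, at -0.91 ± 0.37 (SE), with an edgeR adjusted p of 0.0766, and fell against the Elvitegravir arm, at -1.47 (edgeR adjusted p = 0.0135). The level of Crabp1 was 39.3 and 17.5 CPM in CHIR alone, another wide pair, 45.7 and 38.5 CPM with Elvitegravir and 14.5 and 15.9 CPM with CD1530, and without CHIR library 2 it fell, at −1.38.

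Of the enzymes that make retinoic acid, Aldh1a2, the main one of the early embryo, fell from 8.88 and 6.70 CPM in CHIR alone to 3.50 and 3.93 CPM with CD1530, a log2 fold change of -1.07 ± 0.20 (SE), with an edgeR adjusted p of 0.00203. The CD1530 libraries did not overlap the Elvitegravir libraries at 8.12 and 7.76 CPM either, with a log2 difference of -1.09. They lay below every CHIR and Elvitegravir library, as for 27.1% of all tested genes. The fall of Aldh1a2 no longer reached the fold threshold without CHIR library 1, at −0.87, or without CD1530 library 1, at −0.98. Aldh1a1 rose from a low level, 0.316 and 0.370 CPM, to 1.93 and 1.93 CPM. Rdh10, which makes the retinal that these enzymes use, did not pass, at a log2 fold change of 0.54 ± 0.22 (SE), with an edgeR adjusted p of 0.0694.

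**Figure D1:**
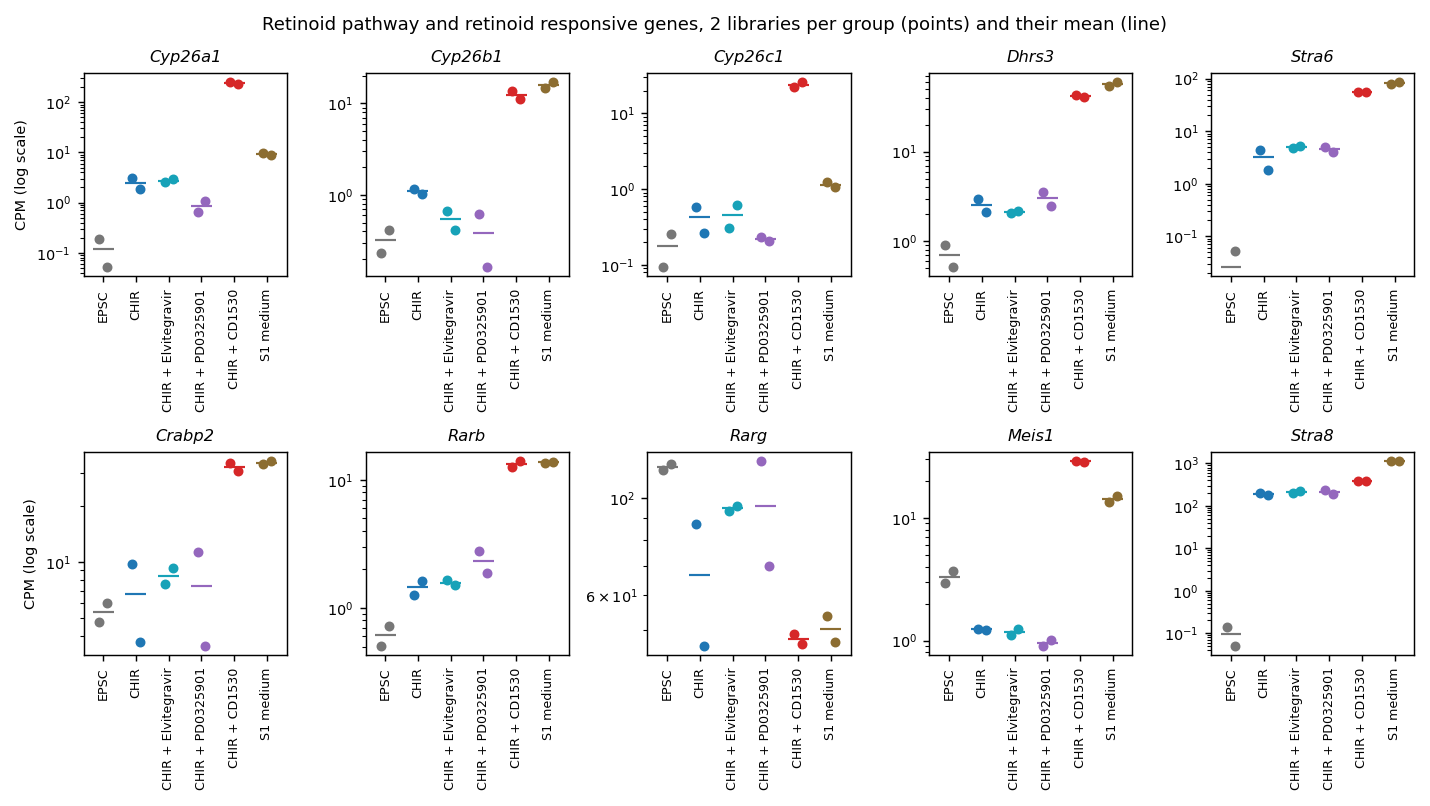
CPM on log axes for 10 retinoid genes in the 6 groups of the first set; points are the 2 libraries of a group and lines their mean. For Cyp26a1 the CD1530 libraries stand at 248 and 236 CPM, above every other library, while for Rarg the CHIR libraries lie apart at 87.3 and 46.0 CPM and span the CD1530 libraries.

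Of the 6 receptors 1 rose and none fell against CHIR, while 1 rose and 1 fell against the Elvitegravir arm. Without CHIR library 1 the count was 3 risen, and 1 fell without CHIR library 2 or without CD1530 library 2. For scale, 12.4% of all tested genes rose and 8.36% fell against CHIR, and 9.55% and 5.97% against the Elvitegravir arm. Rarb (chromosome 14, 16430839 to 16819156, minus strand) stood at 1.26 and 1.63 CPM in CHIR alone, 1.64 and 1.50 CPM with Elvitegravir and 12.5 and 14.0 CPM with CD1530. Its log2 fold change was 3.21 ± 0.24 (SE), with an edgeR adjusted p of 7.25e-06. Both CD1530 libraries of Rarb lay above both CHIR libraries, as for 36.9% of all tested genes. In the annotation 38.37% of its exonic sequence lies inside Gm48162 or Top2b, and reads from overlapping genes cannot be told apart without a stated strand setting. Rarg, the receptor that CD1530 is designed for, stood at 87.3 and 46.0 CPM in CHIR alone, 93.5 and 95.9 CPM with Elvitegravir and 48.8 and 46.4 CPM with CD1530. The CD1530 libraries were below both Elvitegravir libraries and level with CHIR library 2. The log2 fold change was -0.49 ± 0.29 (SE), with an edgeR adjusted p of 0.199 against CHIR and -0.99 ± 0.29 (SE), with an edgeR adjusted p of 0.0248 against the Elvitegravir arm, so neither met both thresholds. Rara did not pass, at 0.91 ± 0.21 (SE), with an edgeR adjusted p of 0.00714, which is below the fold threshold, and without CHIR library 1 it passed, at 1.25. Rxrb, with 46.1 and 17.9 CPM in CHIR alone and 63.9 and 59.7 CPM with CD1530, did not pass either, although it did without CHIR library 1, at a log2 fold change of 1.76. The Elvitegravir libraries held 51.3 and 57.2 CPM of Rxrb, both below the CD1530 libraries. Rxrg, another retinoid X receptor gene, stood at 1.99 and 1.11 CPM in CHIR alone, 1.68 and 1.89 CPM with Elvitegravir and 0.569 and 1.01 CPM with CD1530. It did not pass against CHIR, at -0.97 ± 0.37 (SE), with an edgeR adjusted p of 0.0591, and fell against the Elvitegravir arm, at -1.16 ± 0.37 (SE), with an edgeR adjusted p of 0.0377. Without CHIR library 2 it fell against CHIR as well, at −1.32, and likewise without CD1530 library 2, at −1.46.

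Per kilobase of exon, Rarg remained the most abundant RAR with CD1530, at 11.2 ± 0.39 CPM per kilobase (SD, n = 2), followed by Rara at 7.68 ± 0.287 and Rarb at 2.52 ± 0.209. In CHIR alone the order was the same, with Rarg at 15.6 ± 6.85, Rara at 4.08 ± 1.27 and Rarb at 0.275 ± 0.0488 CPM per kilobase. Among 10 co-repressors and co-activators of these receptors, Nrip1 alone rose, and none fell, against either reference, while without CHIR library 1 the count was 2 risen. For scale, 12.4% of all tested genes rose against CHIR and 9.55% against the Elvitegravir arm, so 1 of 10 is near that share. Nrip1 encodes a co-repressor recruited by receptors that have bound their agonist. It went from 33.8 and 34.9 to 80.7 and 84.5 CPM, a log2 fold change of 1.27 ± 0.11 (SE), with an edgeR adjusted p of 2.06e-05, and stood at 105 and 115 CPM in S1 cells.

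A wider list of 23 retinoic acid responsive genes had 22 tested, of which 13 rose and 1 fell, with a median log2 fold change of 2.02. Against the Elvitegravir arm 12 rose and 1 fell. Homeodomain cofactors of Hox proteins were among them. Meis1 stood at 1.24 and 1.22 CPM in CHIR alone, 1.11 and 1.25 CPM with Elvitegravir and 29.1 and 28.3 CPM with CD1530, a log2 fold change of 4.54 ± 0.18 (SE), with an edgeR adjusted p of 2.12e-07. Meis2 went from 5.40 and 4.29 to 34.0 and 34.2 CPM, and its level with PD0325901 was 26.2 and 19.8 CPM. The CD1530 libraries of both genes lay above every CHIR and Elvitegravir library, as for 31.5% of all tested genes. Nr2f2, an orphan nuclear receptor gene, went from 0.949 and 0.888 to 9.90 and 10.3 CPM, a log2 fold change of 3.45 ± 0.39 (SE), with an edgeR adjusted p of 9.29e-05. Its paralog Nr2f1 did not pass, at 0.565 and 0.666 CPM in CHIR alone and 0.796 and 1.30 CPM with CD1530. Zfp703, a transcriptional repressor gene, stood at 2.57 and 0.592 CPM in the CHIR libraries and 83.9 and 79.6 CPM with CD1530. The Elvitegravir libraries held 2.62 and 2.56 CPM, and against them the log2 fold change was 4.98 ± 0.46 (SE), with an edgeR adjusted p of 2.84e-05.

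Stra8, the retinoic acid target that licenses entry into meiosis, was already present without CD1530. It stood at 0.139 and 0.0514 CPM in untreated EPSCs, 206 and 183 CPM in CHIR alone and 206 and 225 CPM with Elvitegravir. With CD1530 it stood at 389 and 390.0 CPM, and in S1 cells at 1155 and 1113 CPM. The log2 fold change over CHIR alone was 1.00 ± 0.15 (SE), with an edgeR adjusted p of 5.59e-04, at the edge of the fold threshold. Stra8 did not pass with DESeq2, with its size factors, with all 52 libraries, with the 4 libraries alone or with halved counts. It did not pass against the mean of both references either. Without CHIR library 2 the log2 fold change was 0.91. Over the Elvitegravir arm it was 0.85 ± 0.15 (SE), with an edgeR adjusted p of 0.0017, which is below that threshold. Rec8, the meiotic cohesin subunit, rose from 43.5 and 41.0 to 105 and 111 CPM, a log2 fold change of 1.36 ± 0.11 (SE), with an edgeR adjusted p of 1.33e-05. The other genes of the meiosis and germline list did not follow. Of 18 tested, 2 rose (Rec8 and, at the edge of the threshold, Stra8) and 6 fell, and the median log2 fold change was −0.68. Over all tested genes 12.4% rose and 8.36% fell. Dmc1, the meiotic recombinase, went from 60.6 and 89.7 to 27.3 and 27.5 CPM, a log2 fold change of -1.46 ± 0.17 (SE), with an edgeR adjusted p of 1.08e-04. Meioc, which sustains meiotic prophase, went from 28.6 and 42.4 to 13.3 and 15.7 CPM, a log2 fold change of -1.29 ± 0.21 (SE), with an edgeR adjusted p of 9.84e-04, and without CHIR library 2 its fold change was −0.99, just under the fold threshold. Hormad1, a chromosome axis protein gene, went from 5.35 and 9.14 to 1.59 and 2.04 CPM, a log2 fold change of -1.98 ± 0.29 (SE), with an edgeR adjusted p of 5.31e-04. Against the Elvitegravir arm 1 member of the list rose and 5 fell.

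Hox genes, which set position along the trunk, rose widely. Of 39 Hox genes 21 were tested, and 18 rose with none falling, at a median log2 fold change of 3.15. Against the Elvitegravir arm 17 rose. The 18 genes that were not tested include 12 that hold no count anywhere in the first set although other libraries of the series hold counts for them, so their 0 is not read as absence. In the first set as a whole, 12283 of the 24602 genes without a count had counts elsewhere in the series. At the 3′ end of its cluster, Hoxb1 stood at 5.01 and 3.33 CPM in CHIR alone, 6.98 and 7.51 CPM with Elvitegravir and 74.7 and 75.2 CPM with CD1530, a log2 fold change of 4.15 ± 0.23 (SE), with an edgeR adjusted p of 1.10e-06. It was below 2 CPM in untreated EPSCs, and the PD0325901 libraries held 17.8 and 12.4 CPM.

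Rises were not limited to the 3′ end. Hoxb8 stood at 0.181 and 0.222 CPM in CHIR alone and 19.1 and 17.4 CPM with CD1530, a log2 fold change of 6.52 ± 0.52 (SE), with an edgeR adjusted p of 9.37e-06, and at 11.4 and 11.9 CPM in S1 cells. Hoxb9 went from 2.03 and 1.48 to 15.4 and 16.3 CPM, a log2 fold change of 3.15 ± 0.25 (SE), with an edgeR adjusted p of 1.06e-05. Hoxc4 went from 1.22 and 0.888 to 16.4 and 15.2 CPM, a log2 fold change of 3.88 ± 0.26 (SE), with an edgeR adjusted p of 3.57e-06. In each case both CD1530 libraries exceeded all CHIR and Elvitegravir libraries, as for 31.5% of all tested genes. Of the Cdx genes, regulators of the more posterior Hox genes, 2 of 3 rose against both references. Cdx1 went from 15.1 and 8.81 to 105 and 107 CPM, a log2 fold change of 3.14 ± 0.24 (SE), with an edgeR adjusted p of 7.72e-06. Cdx2, also the defining factor of trophectoderm, went from 1.45 and 0.888 to 8.19 and 9.67 CPM.

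**Figure D2:**
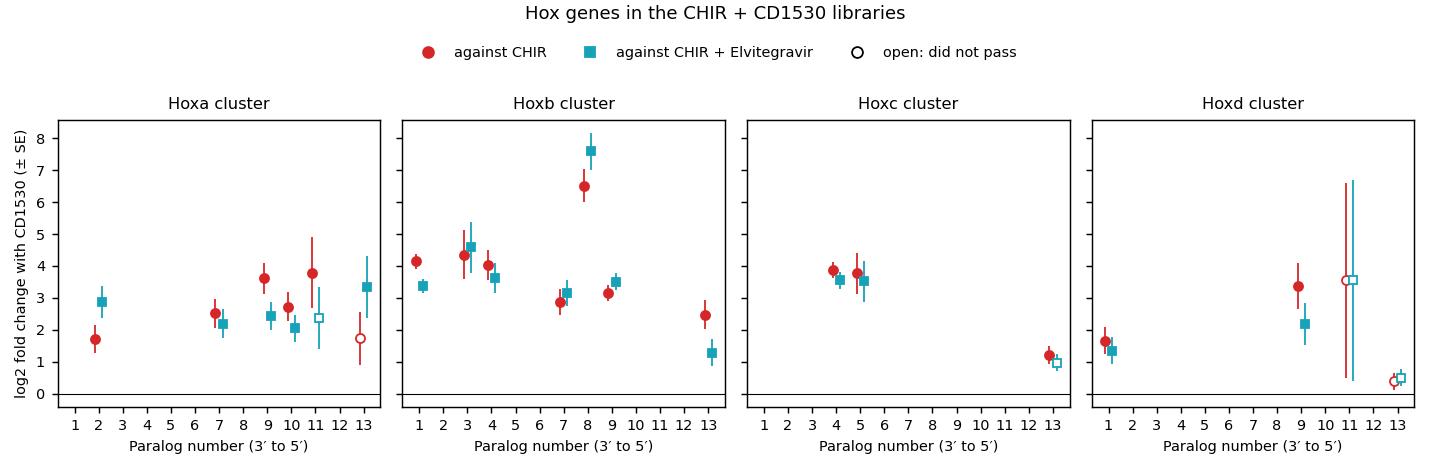
Log2 fold change with CD1530 for 20 of the 21 tested Hox genes by cluster and paralog number, against CHIR alone (circles) and CHIR with Elvitegravir (squares), with standard errors; open symbols did not pass. All 20 points lie above 0 against CHIR, from Hoxd13 at 0.38 to Hoxb8 at 6.52.

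Regulators of primitive endoderm, the first extraembryonic endoderm of the blastocyst, rose without exception. All 12 listed genes were tested and rose against both references, with a median log2 fold change of 3.71. Gata6, which starts this lineage, stood at 12.3 and 11.8 CPM in CHIR alone, 15.1 and 13.6 CPM with Elvitegravir and 149.6 and 148 CPM with CD1530. The fitted log2 fold change was 3.63 ± 0.13 (SE), with an edgeR adjusted p of 1.87e-07. Gata4, its partner GATA factor, went from 17.3 and 10.2 to 233 and 227 CPM, a log2 fold change of 4.06 ± 0.22 (SE), with an edgeR adjusted p of 9.57e-07. Sox17, which follows the GATA factors, went from 3.25 and 2.96 to 107 and 104 CPM, a log2 fold change of 5.08 ± 0.22 (SE), with an edgeR adjusted p of 3.12e-07. For these 3 genes both CD1530 libraries lay above every CHIR and Elvitegravir library, as they did for 31.5% of all tested genes. Their levels in CHIR alone were above those in untreated EPSCs, where Gata6 held 1.51 and 1.59 CPM, while the PD0325901 libraries held 0.614 and 0.569 CPM and S1 cells 3.63 and 3.06 CPM. Pdgfra, the receptor that marks this lineage, went from 18.2 and 15.1 to 283 and 291 CPM, a log2 fold change of 4.10 ± 0.13 (SE), with an edgeR adjusted p of 1.87e-07. Foxa2, a forkhead factor of endoderm, went from 2.17 and 1.55 to 25.9 and 28.8 CPM, and Hnf4a, a later regulator, from 3.18 and 1.18 to 13.4 and 15.4 CPM.

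Parietal endoderm lays down the thick basement membrane of the yolk sac, and the genes of that membrane rose to high levels. Of 20 listed genes 17 rose and 1 fell, with a median log2 fold change of 2.98, and 16 rose and 1 fell against the Elvitegravir arm. The 3 laminin chains of the early embryonic basement membrane rose. Lama1 (chromosome 17, 67697259 to 67822647, plus strand) stood at 108 and 86.0 CPM in CHIR alone, 102 and 112 CPM with Elvitegravir and 3379 and 3449.6 CPM with CD1530, a log2 fold change of 5.14 ± 0.15 (SE), with an edgeR adjusted p of 1.80e-07. Lamb1 went from 285 and 202 to 2372 and 2389.7 CPM, a log2 fold change of 3.29 ± 0.16 (SE), with an edgeR adjusted p of 5.10e-07. Lamc1 went from 352 and 278 to 2869.8 and 2920.5 CPM, a log2 fold change of 3.20 ± 0.13 (SE), with an edgeR adjusted p of 2.12e-07. For all 3 chains both CD1530 libraries lay above every CHIR and Elvitegravir library, as for 31.5% of all tested genes. In S1 cells Lama1 held 18.0 and 20.0 CPM and with PD0325901 3.30 and 3.82 CPM. The collagen IV chain Col4a1 stood at 79.4 and 35.7 CPM in CHIR alone and 1841 and 2034 CPM with CD1530, and its log2 fold change over the Elvitegravir arm was 4.42 ± 0.37 (SE), with an edgeR adjusted p of 1.57e-05. Nid1, the linker between laminin and collagen IV, changed less, from 42.0 and 33.9 to 126 and 133 CPM, a log2 fold change of 1.77 ± 0.13 (SE), with an edgeR adjusted p of 5.36e-06. The keratin partners Krt8 and Krt18 had log2 fold changes of 3.04 ± 0.19 and 2.93 ± 0.16 (SE) with edgeR adjusted p of 1.95e-06 and 9.76e-07. The member that fell was Fst, which encodes an inhibitor of activin, from 41.4 and 47.9 to 5.21 and 4.11 CPM, a log2 fold change of -3.26 ± 0.16 (SE), with an edgeR adjusted p of 5.10e-07.

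Visceral endoderm genes rose in part. Of 20 listed genes 16 were tested, 10 rose and none fell, with a median log2 fold change of 1.91. Over all tested genes 12.4% rose. Against the Elvitegravir arm 9 members of the list rose and 1 fell. Without CHIR library 2 the count of fallen genes against CHIR was 1. The endocytic receptor Cubn stood at 0.232 and 0.257 CPM in untreated EPSCs, 149.6 and 155 CPM in CHIR alone and 1269 and 1325 CPM with CD1530. Its log2 fold change was 3.09 ± 0.22 (SE), with an edgeR adjusted p of 4.37e-06. Its partner Amn went from 9.35 and 5.11 to 143 and 135 CPM, a log2 fold change of 4.25 ± 0.29 (SE), with an edgeR adjusted p of 4.15e-06. With PD0325901 Cubn held 0.537 and 0.976 CPM and in S1 cells 2.25 and 3.54 CPM. Among the secreted products of this tissue, the thyroid hormone carrier Ttr stood at 0.226 and 0.222 CPM in CHIR alone and 2.39 and 1.45 CPM with CD1530, a log2 fold change of 3.08 ± 0.94 (SE), with an edgeR adjusted p of 0.0305. That call was lost when any 1 of the 4 compared libraries was left out. Apob did not pass, at 0.84 ± 0.30 (SE), with an edgeR adjusted p of 0.0452, but did without CHIR library 2, at 1.24. It rose against the Elvitegravir arm, at 1.05 ± 0.30 (SE), with an edgeR adjusted p of 0.0224. Afp, Apoa4 and Cer1 were not tested.

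Genes of pluripotency moved in both directions, beside 12.4% risen and 8.36% fallen over all tested genes. Of 22 tested members of the core and naive list, 5 rose (Klf4, Klf5, Tfcp2l1, Tbx3 and Tcl1) and 5 fell (Nanog, Klf2, Nr5a2, Dppa3 and Fgf4), so the median of 0.14 does not describe either set. With the Elvitegravir reference 5 rose and 8 fell, and without CHIR library 2 the count of fallen genes against CHIR was 7. Sox2, also a member, was not tested. It holds no count in the first set although other libraries of the series hold counts for it, so its 0 is not read as absence. Nanog stood at 223 and 233 CPM in untreated EPSCs, 22.6 and 21.8 CPM in CHIR alone and 2.33 and 2.42 CPM with CD1530, a log2 fold change of -3.22 ± 0.18 (SE), with an edgeR adjusted p of 1.06e-06. Klf2 went from 35.7 and 27.0 to 2.84 and 3.91 CPM, a log2 fold change of -3.21 ± 0.19 (SE), with an edgeR adjusted p of 1.87e-06. Nr5a2, an orphan nuclear receptor gene of the naive state, went from 5.85 and 6.59 to 0.939 and 1.06 CPM. For each, the CD1530 libraries were below every CHIR and Elvitegravir library, as for 27.1% of all tested genes. Klf4, a relative of Klf2, moved the other way, from 6.64 and 2.81 to 58.2 and 58.2 CPM, and over the Elvitegravir arm its log2 fold change was 3.37 ± 0.45 (SE), with an edgeR adjusted p of 2.83e-04. Klf5 went from 52.9 and 40.4 to 272 and 256 CPM, a log2 fold change of 2.50 ± 0.18 (SE), with an edgeR adjusted p of 5.79e-06. Tbx3 went from 8.29 and 4.59 to 58.2 and 55.2 CPM and Tfcp2l1 from 24.4 and 27.8 to 72.9 and 78.1 CPM. Klf4, Klf5 and Tfcp2l1 still lay below their levels in untreated EPSCs, 169.7 and 196 CPM for Klf4. The central factor Pou5f1 stood at 66.9 and 41.0 CPM in CHIR alone, 87.7 and 83.8 CPM with Elvitegravir and 35.4 and 33.4 CPM with CD1530. Its log2 fold change of -0.65 ± 0.20 (SE), with an edgeR adjusted p of 0.0264 was below the fold threshold against CHIR, and it fell against the Elvitegravir arm, at -1.32 ± 0.20 (SE), with an edgeR adjusted p of 7.69e-04.

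Genes of the formative epiblast, the stage between naive and primed pluripotency, fell. Of 15 tested genes 12 fell and none rose, at a median log2 fold change of −2.16, and 13 fell and none rose against the Elvitegravir arm. Otx2 (chromosome 14, 48657677 to 48673819, minus strand), which drives this transition, stood at 13.2 and 11.5 CPM in CHIR alone, 8.59 and 11.0 CPM with Elvitegravir and 0.114 and 0.0879 CPM with CD1530. On the log2 scale the fold change was -6.93 ± 0.26 (SE), with an edgeR adjusted p of 2.12e-07, and S1 cells held 0.520 and 0.470 CPM. Pou3f1, its partner in formative enhancers, stood at 68.1 and 27.9 CPM in CHIR alone and 11.0 and 10.6 CPM with CD1530, a log2 fold change of -2.16 ± 0.37 (SE), with an edgeR adjusted p of 0.00126. Dnmt3b, a DNA methyltransferase gene of this stage, went from 535 and 565 to 185 and 193 CPM, a log2 fold change of -1.54 ± 0.09 (SE), with an edgeR adjusted p of 1.96e-06. For each of the 3 genes both CD1530 libraries lay below both CHIR libraries, as for 32.7% of all tested genes.

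**Figure D3:**
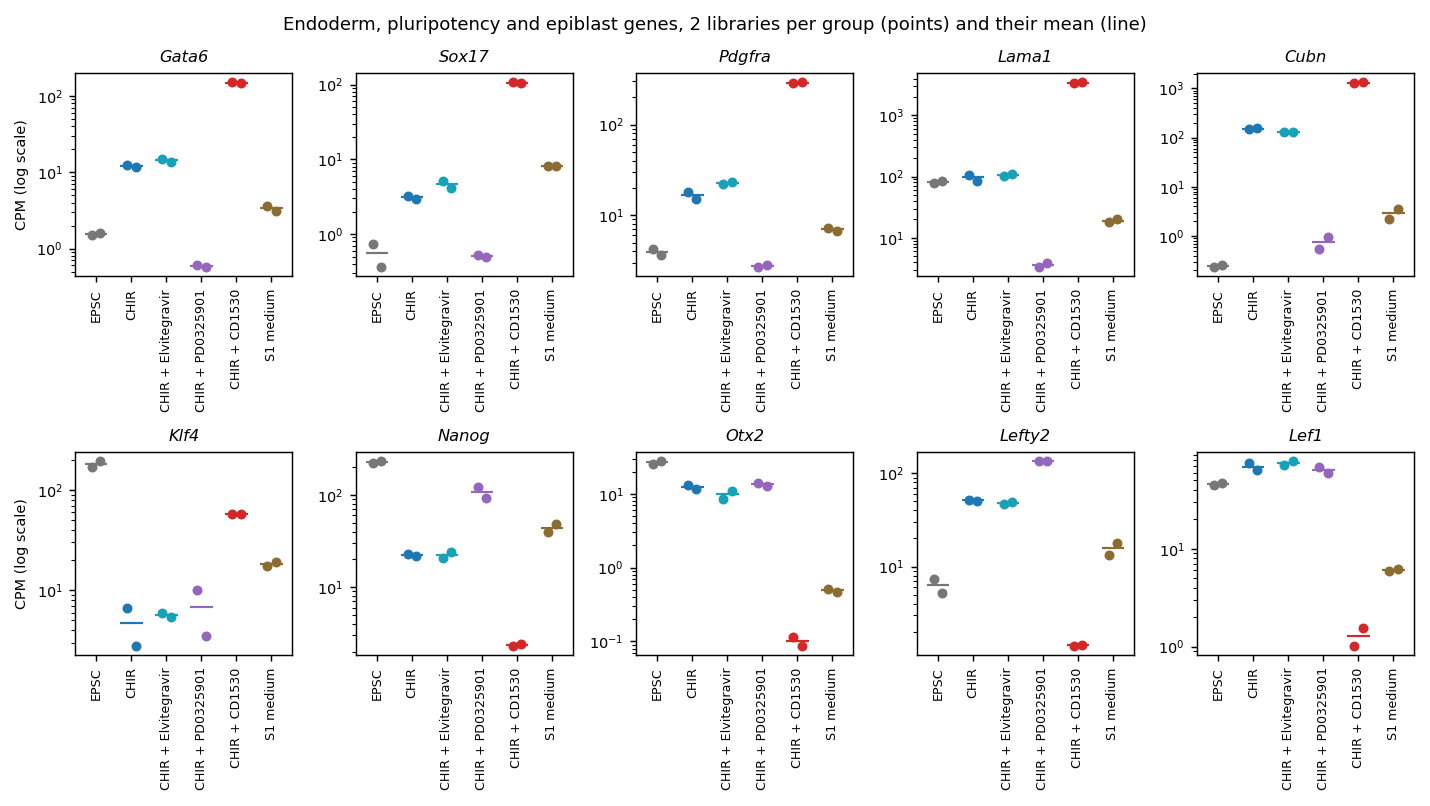
CPM on log axes for 10 endoderm, pluripotency and epiblast genes in the 6 groups of the first set; points are libraries and lines their mean. Gata6, Sox17, Pdgfra, Lama1 and Cubn are highest with CD1530, while Nanog, Otx2, Lefty2 and Lef1 are lowest there, with Otx2 at 0.114 and 0.0879 CPM.

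Nodal signalling keeps the epiblast and induces mesendoderm. Of 15 tested genes of the Nodal and Activin list, 7 fell and none rose, against either reference, while without CHIR library 1 the count of risen genes was 1. The ligand gene Nodal went from 58.7 and 43.9 CPM in CHIR alone to 19.6 and 20.9 CPM with CD1530, a log2 fold change of -1.34 ± 0.15 (SE), with an edgeR adjusted p of 7.44e-05. Its co-receptor Tdgf1 went from 569.8 and 478 to 7.88 and 6.11 CPM, a log2 fold change of -6.23 ± 0.26 (SE), with an edgeR adjusted p of 2.14e-07. The feedback inhibitors, which are themselves Nodal targets, fell as well. Lefty2 went from 51.7 and 51.1 to 1.42 and 1.43 CPM, a log2 fold change of -5.17 ± 0.21 (SE), with an edgeR adjusted p of 2.12e-07. Lefty1 went from 103 and 62.1 to 7.28 and 6.44 CPM, a log2 fold change of -3.59 ± 0.24 (SE), with an edgeR adjusted p of 3.20e-06. In all 4 genes the CD1530 libraries were below both references, as for 27.1% of all tested genes. Lefty2 with PD0325901 held 136 and 136 CPM.

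The primitive streak list had 14 genes tested, of which 3 rose and 5 fell, beside 12.4% and 8.36% of all tested genes. Against the Elvitegravir arm 1 rose and 5 fell. Without CD1530 library 1 or CD1530 library 2 the count of risen genes was 1. T, the mesoderm factor brachyury, stood at 12.0 and 11.0 CPM in untreated EPSCs, 1.54 and 1.26 CPM in CHIR alone and 0.427 and 0.308 CPM with CD1530, a log2 fold change of -1.95 ± 0.34 (SE), with an edgeR adjusted p of 0.00128. Mixl1, a mesendoderm homeobox gene, went from 3.09 and 3.26 to 0.569 and 0.572 CPM, a log2 fold change of -2.47 ± 0.30 (SE), with an edgeR adjusted p of 1.51e-04. The ligand gene Wnt3 went from 6.51 and 4.44 to 1.14 and 1.36 CPM. Mesp1, a mesoderm factor, had no count in either CD1530 library and 0.361 and 0.296 CPM in the CHIR libraries, which is at least 8.84-fold lower when set against a floor of 3 counts over the group. Eomes, shared between streak and trophectoderm, moved in the other direction, from 8.29 and 4.07 to 16.1 and 17.5 CPM, a log2 fold change of 1.43 ± 0.29 (SE), with an edgeR adjusted p of 0.00339.

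Targets of Wnt, the pathway that CHIR engages on both sides of the comparison, went in both directions. Over all tested genes 12.4% rose and 8.36% fell against CHIR. Of 18 tested genes of this list 3 rose and 3 fell, with a median log2 fold change of 0.04. With the Elvitegravir reference 2 rose and 3 fell, at a median of −0.38. The count of risen genes rested on the CHIR libraries, with 5 without library 1 and 2 without library 2. Lef1, the Wnt effector that is also a formative gene, went from 75.0 and 63.6 to 1.02 and 1.54 CPM, a log2 fold change of -5.74 ± 0.20 (SE), with an edgeR adjusted p of 1.87e-07. Ccnd1, the cyclin D1 gene, went from 88.3 and 68.3 to 14.9 and 14.2 CPM, a log2 fold change of -2.43 ± 0.14 (SE), with an edgeR adjusted p of 1.13e-06. Myc went from 43.1 and 27.4 to 8.93 and 9.63 CPM, a log2 fold change of -1.93 ± 0.21 (SE), with an edgeR adjusted p of 6.67e-05. These 3 genes fell against both references. Axin2, the most widely used reporter of β-catenin activity, stood at 37.6 and 21.1 CPM in CHIR alone, 40.9 and 47.0 CPM with Elvitegravir and 54.2 and 56.2 CPM with CD1530. Its log2 fold change of 0.91 ± 0.25 (SE), with an edgeR adjusted p of 0.0168 did not reach the fold threshold, and it was 0.33 over the Elvitegravir arm (edgeR adjusted p = 0.358). Without CHIR library 1 it was 1.37 and passed. Dkk1, a secreted Wnt inhibitor gene, rose from 2.67 and 2.52 to 37.4 and 34.1 CPM, a log2 fold change of 3.78 ± 0.28 (SE), with an edgeR adjusted p of 6.61e-06.

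Of 17 tested genes of the BMP list, 9 rose and none fell against either reference, at a median log2 fold change of 1.42. Id1, an immediate BMP target, stood at 53.3 and 43.4 CPM in untreated EPSCs, 3.16 and 3.18 CPM in CHIR alone and 25.4 and 24.2 CPM with CD1530, a log2 fold change of 2.96 ± 0.17 (SE), with an edgeR adjusted p of 1.30e-06. Msx2, a homeobox target, went from 1.90 and 2.15 to 15.6 and 15.3 CPM, a log2 fold change of 2.94 ± 0.18 (SE), with an edgeR adjusted p of 2.31e-06. The ligand gene Bmp2 stood at 1.04 and 1.63 CPM in CHIR alone, 0.268 and 0.167 CPM with Elvitegravir and 9.22 and 10.0 CPM with CD1530, a log2 fold change of 2.87 ± 0.27 (SE), with an edgeR adjusted p of 2.96e-05. The references differ for Bmp2, and over the Elvitegravir arm its log2 fold change was 5.48. Bmp4, the other main ligand gene here, did not pass, from 2.64 and 2.11 to 3.93 and 3.82 CPM.

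FGF signalling through ERK is reported by its feedback genes. Of 18 tested, 9 fell and 2 rose, with a median log2 fold change of −1.02, and 11 fell and 1 rose against the Elvitegravir arm. The count of risen genes was 1 without CHIR library 1 or CHIR library 2. The ligand gene Fgf4, made by the epiblast, went from 26.7 and 32.4 CPM in CHIR alone to 0.341 and 0.835 CPM with CD1530, a log2 fold change of -5.59 ± 0.27 (SE), with an edgeR adjusted p of 5.80e-07. Among the feedback inhibitors, Spry4 went from 41.0 and 30.8 to 3.98 and 4.26 CPM, a log2 fold change of -3.12 ± 0.16 (SE), with an edgeR adjusted p of 8.11e-07. The CD1530 libraries of Spry4 were also below those with the MEK inhibitor PD0325901, at 17.1 and 17.9 CPM. Dusp6, an ERK phosphatase gene, went from 82.9 and 94.7 to 36.5 and 38.0 CPM, a log2 fold change of -1.25 ± 0.13 (SE), with an edgeR adjusted p of 5.10e-05, and stood at 37.0 and 44.9 CPM with PD0325901. Etv5, a transcription factor gene downstream of ERK, went from 138 and 123 to 22.4 and 21.6 CPM, a log2 fold change of -2.57 ± 0.13 (SE), with an edgeR adjusted p of 5.80e-07. Spry2 did not pass, at 50.6 and 45.1 CPM in CHIR alone and 43.5 and 42.7 CPM with CD1530.

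Genes listed here for the 2-cell embryo and cells like it rose to modest levels. Of 23 tested, 21 rose and none fell, at a median log2 fold change of 3.10, and 20 rose against the Elvitegravir arm. Zscan4c, a zinc finger gene of that stage, had no count in untreated EPSCs, stood at 2.94 and 3.77 CPM in CHIR alone and 27.8 and 29.2 CPM with CD1530. The log2 fold change was 3.10 ± 0.22 (SE), with an edgeR adjusted p of 8.74e-06. The same gene stood at 32.5 and 43.1 CPM with PD0325901 and 445 and 474 CPM in S1 cells, so the CD1530 level was a small share of the S1 level. Zfp352 went from 0.542 and 0.518 to 5.06 and 5.45 CPM, a log2 fold change of 3.30 ± 0.33 (SE), with an edgeR adjusted p of 6.65e-05, with 51.8 and 57.9 CPM in S1 cells. Pramel7 had no count in the CHIR or Elvitegravir libraries and 2.90 and 2.99 CPM with CD1530, which is at least 70.0-fold higher than CHIR alone against a floor of 3 counts over the group. S1 cells held 0.554 and 0.742 CPM of Pramel7, below the CD1530 libraries, so this list member differed in order from Zscan4c and Zfp352. The Zscan4, Usp17l and Tcstv genes are near-identical copies that share reads, so their single values are uncertain and they are not independent members of the count.

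Trophectoderm genes also rose, 13 of 15 tested, with none falling and a median log2 fold change of 2.36. Against the Elvitegravir arm 12 rose. Gata3 stood at 0.248 and 0.222 CPM in CHIR alone and 3.10 and 3.78 CPM with CD1530, a log2 fold change of 3.85 ± 0.34 (SE), with an edgeR adjusted p of 1.79e-05, and at 10.4 and 9.91 CPM in S1 cells. Tead4, the factor upstream of Cdx2, went from 13.5 and 10.2 to 62.4 and 59.4 CPM, a log2 fold change of 2.36 ± 0.20 (SE), with an edgeR adjusted p of 1.48e-05, and stood at 63.6 and 73.9 CPM in untreated EPSCs. Elf5, which marks committed trophoblast, went from 0.181 and 0.222 to 0.910 and 1.85 CPM, a rise that no longer passed without CHIR library 1, CHIR library 2 or CD1530 library 2. The trophectoderm list shares Krt8 and Krt18 with the parietal endoderm list, so the lists are not separate evidence. In bulk libraries, more cells of a type and more RNA per cell cannot be told apart.

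For the remaining lists, single libraries decided several of the counts. Over all tested genes 12.4% rose and 8.36% fell against CHIR, and 9.55% and 5.97% against the Elvitegravir arm. The neural progenitor list has 14 genes, and Sox1, Neurog2, Neurod1 and Tubb3 were not tested. Of its 10 tested genes 2 rose and 2 fell, against either reference. None of them rose without CHIR library 2 or without CD1530 library 1, while 1 rose and 1 fell without CD1530 library 2, and 3 rose and 1 fell without CHIR library 1. Of 20 proliferation genes 1 rose and 3 fell, and against the Elvitegravir arm 1 fell and none rose. Without CHIR library 2 none rose and 1 fell, and without CHIR library 1 the counts were 2 and 5. Of 15 p53 targets 1 rose and 1 fell against either reference, with 2 risen without CHIR library 1. The p53 target that fell was Pmaip1, a cell death gene, from 118 and 147 to 33.3 and 32.6 CPM, a log2 fold change of -2.01 ± 0.13 (SE), with an edgeR adjusted p of 2.36e-06. Feeder fibroblast markers rose in 5 of 16 against CHIR and in 1 of 16 against the Elvitegravir arm. The summed level of those 16 markers was 133 and 118 CPM in CHIR alone, 168 and 155 CPM with Elvitegravir and 187 and 189.9 CPM with CD1530, and untreated EPSCs held 377 and 350.2 CPM. Its defining member Col1a1 stood at 17.9 and 10.5 CPM in CHIR alone, 23.0 and 21.7 CPM with Elvitegravir and 30.2 and 31.7 CPM with CD1530. The part of such cells in any result was not tested.

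**Figure D4:**
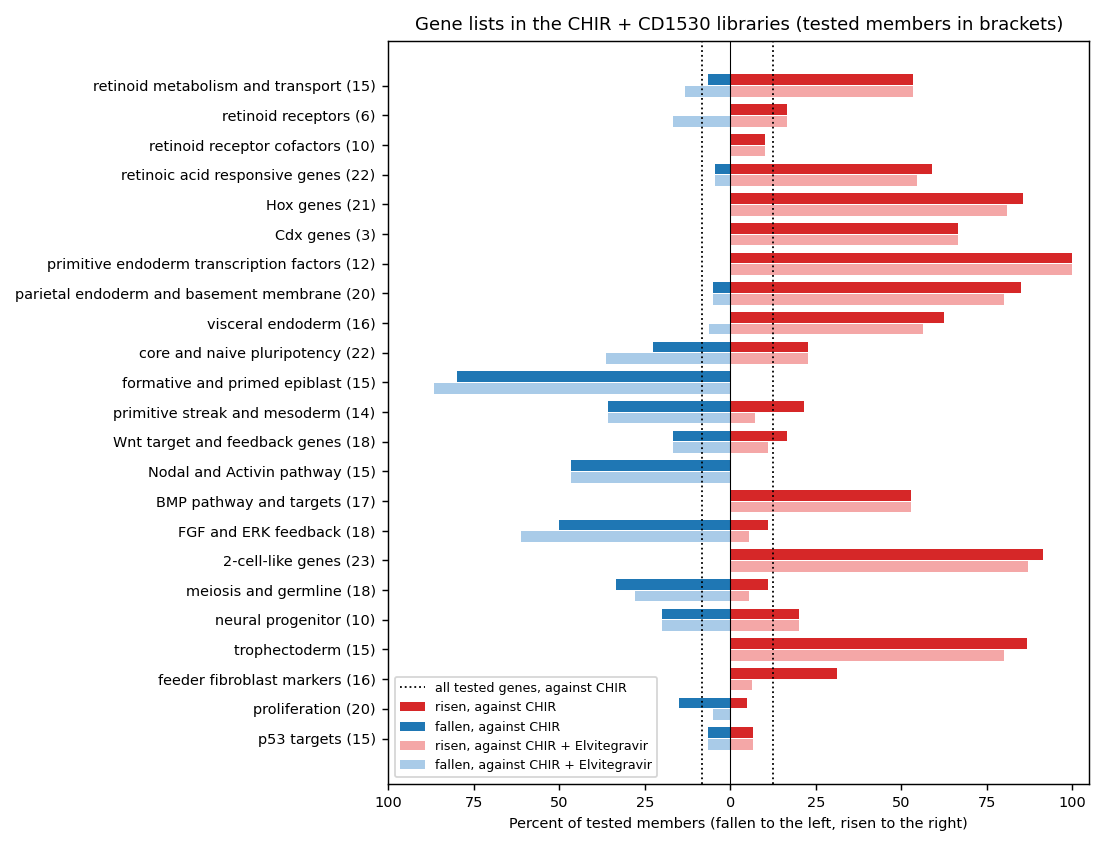
Percent of tested members that rose (right) or fell (left) with CD1530 in 23 gene lists, against CHIR alone (dark bars) and CHIR with Elvitegravir (light bars); dotted lines give the share over all tested genes, 12.4% risen and 8.36% fallen. All 12 primitive endoderm factors rose against both references and 12 of 15 formative genes fell against CHIR.

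The S2 aggregates give CD1530 a separate set of libraries, in another cell state, with the compound present or left out for 1 day. They are made of S1 cells, described as receiving all the small molecules, so both sides may have met CD1530 before. There the complete medium is compared with the same medium lacking CD1530, so a higher value means higher with the compound present. Of 19732 tested genes 510 were changed (2.58%), 332 of them higher (1.68%) and 178 lower (0.902%). Without library 2 of the complete medium 209 were higher, without library 2 of the medium minus CD1530 219 were higher, and without library 1 of the complete medium 116 were lower. Of the genes tested in both settings, 121 were risen in EPSCs and higher in S2, which is 40.7% of the 297 genes higher in S2 and 5.55% of the 2181 risen in EPSCs. Risen genes made up 13.0% of all genes tested in both. Another 64 genes were lower in both, 41.6% of the 154 lower in S2 and 4.55% of the 1407 fallen in EPSCs, where fallen genes made up 8.39% of those tested in both. Changes of opposite direction were seen in 21 genes that rose in EPSCs and were lower in S2, 13.6% of the 154 lower in S2. In turn, 26 genes fell in EPSCs and were higher in S2, 8.75% of the 297 higher there. These shares were close to those over all genes tested in both, 13.0% risen and 8.39% fallen.

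Retinoid genes were among those higher in both settings. In S2, 6 of 13 tested genes of retinoid metabolism and transport were higher and none lower. Cyp26a1 stood at 0.886 and 0.276 CPM without CD1530 and 3.39 and 5.17 CPM with it, a log2 fold change of 2.91 ± 0.37 (SE), with an edgeR adjusted p of 3.16e-04. Rarb stood at 0.607 and 0.230 CPM without and 2.29 and 3.95 CPM with CD1530, a log2 fold change of 2.91 ± 0.37 (SE), with an edgeR adjusted p of 3.09e-04. Dhrs3 stood at 2.86 and 3.84 CPM without and 17.7 and 17.0 CPM with CD1530, a log2 fold change of 2.37 ± 0.13 (SE), with an edgeR adjusted p of 7.00e-07. The libraries did not overlap for any of the 3 genes, and with CD1530 both lay above those without it for 29.8% of all tested genes. Stra8 stood at 74.1 and 83.0 CPM without and 472 and 451 CPM with CD1530, a log2 fold change of 2.55 ± 0.09 (SE), with an edgeR adjusted p of 4.28e-08. Crabp2 had a log2 fold change of 2.09 ± 0.15 (SE), with an edgeR adjusted p of 3.44e-06. Rarg had one of 0.07 ± 0.08 (SE), with an edgeR adjusted p of 0.631, and did not pass.

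Hox genes were higher in 7 of 21 tested and lower in 1. Hoxb1 stood at 13.3 and 13.1 CPM without and 26.6 and 31.4 CPM with CD1530, a log2 fold change of 1.14 ± 0.12 (SE), with an edgeR adjusted p of 1.12e-04. Hoxb9, which rose in EPSCs, stood at 19.4 and 19.6 CPM without and 18.9 and 20.4 CPM with CD1530 and did not pass. Of the 12 primitive endoderm regulators, Gata6 and Foxa1 were higher in S2 and none was lower. Gata6 stood at 6.43 and 7.93 CPM without and 17.6 and 20.7 CPM with CD1530, a log2 fold change of 1.41 ± 0.12 (SE), with an edgeR adjusted p of 2.22e-05. The laminin and collagen genes did not follow, with 1 of 20 parietal endoderm and basement membrane genes higher and 1 lower. Lama1 stood at 198 and 186 CPM without and 161 and 150.1 CPM with CD1530, a log2 fold change of -0.30 ± 0.08 (SE), with an edgeR adjusted p of 0.0256, below the fold threshold.

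In S2, 5 of 18 tested FGF and ERK feedback genes were lower with CD1530 and none was higher. Spry4 stood at 73.2 and 74.3 CPM without and 16.7 and 13.9 CPM with CD1530, a log2 fold change of -2.27 ± 0.10 (SE), with an edgeR adjusted p of 2.14e-07. Of the formative genes 5 of 15 were lower. Tdgf1 stood at 84.7 and 82.3 CPM without and 27.0 and 26.2 CPM with CD1530, a log2 fold change of -1.65 ± 0.11 (SE), with an edgeR adjusted p of 2.85e-06. Lefty2 stood at 23.2 and 24.1 CPM without and 7.13 and 9.01 CPM with CD1530. T stood at 30.2 and 32.0 CPM without and 5.04 and 4.84 CPM with CD1530, a log2 fold change of -2.65 ± 0.22 (SE), with an edgeR adjusted p of 1.46e-05. Nanog did not pass, at 470.2 and 482 CPM without and 474 and 446 CPM with CD1530, and neither did Otx2, whose S2 log2 fold change was -0.22. The difference between the effects in EPSCs and in S2 was not tested for any gene. Cell state, duration, the other agents and possibly earlier exposure to CD1530 differ between the settings.

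**Figure D5:**
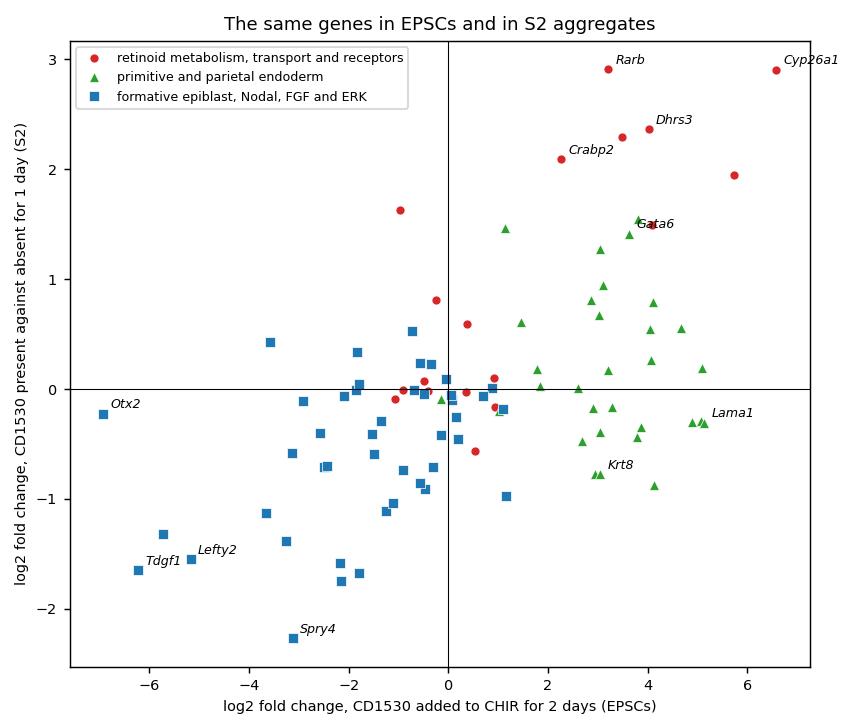
Log2 fold change with CD1530 added for 2 days in EPSCs (x axis) and present against absent for 1 day in S2 aggregates (y axis). Circles are retinoid genes, triangles primitive and parietal endoderm genes, and squares formative, Nodal, FGF and ERK genes. Cyp26a1, Rarb and Dhrs3 lie far above 0 on both axes, while Lama1 is at 5.14 on the x axis and -0.30 on the y axis.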

How the data were processed

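The data are bulk RNA-seq counts of 55291 genes in 52 libraries, of which 12 form the first set (6 groups of 2). Deposited values are raw read counts per gene. The submitters' processing notes name Trimmomatic 0.39, STAR 2.7.10b, featureCounts 2.0.6 and the build mm10, while neither the annotation nor the strand setting is stated in the sources used here. Differential expression was fitted with edgeR 4.0.16 (R 4.3.3, limma 3.58.1) on the deposited counts: TMM factors, filterByExpr by group, 1 mean per group, quasi-likelihood F test and Benjamini-Hochberg adjustment over all 19756 tested genes (19732 in a separate fit of the 10 S2-stage libraries). The call for a changed gene needs an adjusted p under 0.05 with a log2 fold change of at least 1 in size. CPM values are relative to TMM-scaled library totals, and SE is that of the fitted fold change, from a spread shared within each fit. The fit of the first set has 6 residual degrees of freedom.

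Totals ranged from 23928947 to 108304781 counts in the first set. Values of a group at 0 in every library are set against a floor of 3 counts over the group, which covers counting error only. Lists are described by counts and medians, with no set test. Genes named as largest changes are the 12 risen and 12 fallen of largest fold among changed genes reaching 10 CPM, without predicted genes, and list members and a fixed set of marker genes are named besides. Some of these genes are not reported here. The members and lists were chosen with earlier results of these data known. Gene positions come from GENCODE M21 (GRCm38), matched by symbol for 53292 genes, and promoters from RefSeq (GRCm38.p6). The fits were tested on simulated data. Alternatives were DESeq2 1.42.0, its size factors, no filter on low counts, all 52 libraries, halved counts, a replicate block, the 4 libraries alone, other references and leaving out each library. Even values made up 70.2% to 80.5% of the gene counts from 1 to 10 in the first set, so counts were also halved. Nothing else was corrected for base composition.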

Additional observations from a re-analysis of the deposited data

Results flagged for a closer look

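For 25 of the 104 named genes tested in both settings, both libraries with CD1530 lay on one side of both libraries without it in EPSCs and on the opposite side in S2 aggregates. Over all 16764 genes tested in both, 16.9% did so and 28.8% lay on the same side. The difference between the settings was not tested. In S2, 3 of the 25 passed both thresholds, all of them lower with CD1530: Bmp2, Bmp4 and Tcl1. Their log2 fold changes with CD1530 present against absent were -1.49, -1.98 and -1.06. In EPSCs 20 of the 25 had passed both thresholds, while Bmp4, Axin2, Rdh10, Rxrb and Rxrg had not. The other values below are the same S2 quantity and did not pass both thresholds. Basement membrane and keratin genes, higher with CD1530 in EPSCs, were Lama1 at -0.30, Lamb1 at -0.16, Col4a1 at -0.29, Krt8 at -0.78 and Krt18 at -0.78. Signalling genes on that side were Id1 at -0.75, Dkk1 at -0.94 and Axin2 at -0.26. Transcription factor genes on that side were Eomes at -0.86, Tead4 at -0.68, Cdx2 at -0.33, Gata3 at -0.059, Klf4 at -0.19 and Nr2f2 at -0.35. Retinoid genes on that side were Rdh10 at -0.56 and Rxrb at -0.17. Genes lower with CD1530 in EPSCs had positive S2 values, with Meioc at 0.82, Dmc1 at 0.15, Hormad1 at 0.32, Dppa3 at 0.31, Lefty1 at 0.43 and Rxrg at 1.63.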

How the results depend on the processing

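Counts of changed genes for CD1530 added to CHIR were between 3860 and 4497, beside 4103, with DESeq2, with its size factors, without the filter, with halved counts, with all 52 libraries and against the mean of both references. The 4 libraries alone gave 3073. No gene changed in the opposite direction under any alternative run. Leaving out each library in turn gave 2994 to 5537 changed, 1923 to 3272 risen and 1060 to 2265 fallen genes. Against the Elvitegravir arm the ranges were 2366 to 2425 changed, 1485 to 1524 risen and 842 to 914 fallen. In S2 they were 338 to 354 changed, 209 to 236 risen and 116 to 129 fallen, beside 510, 332 and 178. A lone library left in a group was assumed to vary like the others. Leaving out CHIR library 2 and PD0325901 library 2 together, an alternative chosen after seeing the data, gave 3669 changed genes. The log2 fold change of Rarg turned to 0.024 without CHIR library 1 and was −0.89 without CHIR library 2, so its direction against CHIR rests on which of these libraries is kept. With the replicate number as a block the counts were 4195 changed genes for CD1530 added to CHIR, 3096 against the Elvitegravir arm and 514 in S2. The numbers do not pair the libraries by any label, and deviations of same-numbered libraries correlated at 0.05, −0.005 and −0.01 across genes. Precision is limited by 2 libraries per group, and by depth for genes near the floor of 3 counts.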
